A study of Homo sapiens with 14 samples.

Results

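Transcript levels after EZH2 targeting in EOL-1 cells were set against those after MYC targeting in MV4-11 cells, gene by gene, on the rows that both tables list. Of 16336 gene rows in the series, 13720 stood in both tables, 12709 were tested in both comparisons and 1011 were not. A gene entered a direction class when its adjusted p was under 0.05 in each comparison, and 1804 genes (14.2% of those tested in both) did so. They fall into 4 classes: higher in both, lower in both, higher in EOL-1 and lower in MV4-11, and lower in EOL-1 and higher in MV4-11.

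EOL-1 is a human line from an acute eosinophilic leukaemia with the FIP1L1-PDGFRA fusion, and MV4-11 (also written MV4;11) is a human myelomonocytic leukaemia line with the KMT2A-AFF1 fusion and an activated FLT3 receptor. The comparison used 10 of the series' 14 libraries, 2 in each of 5 groups. In EOL-1, sgEZH2 (a guide RNA against EZH2) was set against sgEV, and in MV4-11, sgcMyc guide 1 and sgcMyc guide 5 (independent guide RNAs against the MYC gene) were set against a separate sgEV group. Per the labels, doxycycline at 1 µg/ml for 4 days is given for every group, controls included. A further MV4-11 pair, shEZH2 (a hairpin against EZH2) and EV, shares no library with these and served as a separate readout of the classes. The labels do not say which construct doxycycline drives, whether the cells were 1 clone or a pool, or whether paired libraries stem from different cultures. The p-values therefore reflect differences between libraries that may be technical. EOL-1 has a single EZH2 guide. Line, target and table change together between the comparisons, so they cannot be told apart in any difference of the effects.

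EZH2 is the catalytic subunit of Polycomb repressive complex 2, which methylates lysine 27 of histone H3 and keeps developmental and lineage genes silent. MYC is a transcription factor that pairs with MAX at E-box sequences and drives ribosome production, amino acid use and cell cycle entry. In the myeloid lineage, progenitors first make primary granule proteins such as proteinase 3 and azurocidin, and then acquire lysozyme, phagocytic receptors, lysosomal hydrolases, S100 proteins, the NADPH oxidase and antigen presentation molecules as they mature into monocytes, macrophages and granulocytes.

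Promoters of 4 genes named below are shown because they carry letters bound by factors of this biology. The letters are a PU.1 core in a granule gene that was higher in both lines, and E-boxes in the other genes. Of the genes with E-boxes, CDK4 and SLC7A5 were lower in both lines. RPA1 was lower in EOL-1 and higher in the other line. The promoters were picked after the values were seen. Each is the 250 bases before the annotated start, from RefSeq (GRCh38.p14), read on the gene's own strand, with the match in capitals. PRTN3 (chr19:840749-840998, plus strand) encodes proteinase 3 and has GAGGAAGT starting 88 bases before the start. CDK4 (chr12:57752311-57752560, minus strand) encodes a G1 cell cycle kinase and has CACGTG at 216, 196 and 101 bases. SLC7A5 (chr16:87869508-87869757, minus strand), a leucine transporter gene, has CACGTG at 130 bases, and RPA1 (chr17:1829755-1830004, plus strand), a subunit of the single-stranded DNA binding complex of replication, has it at 98 bases.
PRTN3: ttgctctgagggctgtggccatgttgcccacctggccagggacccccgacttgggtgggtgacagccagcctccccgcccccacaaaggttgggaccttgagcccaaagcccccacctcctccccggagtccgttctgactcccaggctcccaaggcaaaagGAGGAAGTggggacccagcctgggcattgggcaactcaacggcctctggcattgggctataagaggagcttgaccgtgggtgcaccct
CDK4: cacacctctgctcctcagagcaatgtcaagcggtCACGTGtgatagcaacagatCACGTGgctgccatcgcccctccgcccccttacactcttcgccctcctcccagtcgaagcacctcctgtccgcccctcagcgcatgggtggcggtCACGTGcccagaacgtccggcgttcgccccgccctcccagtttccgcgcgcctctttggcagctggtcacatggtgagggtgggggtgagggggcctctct
SLC7A5: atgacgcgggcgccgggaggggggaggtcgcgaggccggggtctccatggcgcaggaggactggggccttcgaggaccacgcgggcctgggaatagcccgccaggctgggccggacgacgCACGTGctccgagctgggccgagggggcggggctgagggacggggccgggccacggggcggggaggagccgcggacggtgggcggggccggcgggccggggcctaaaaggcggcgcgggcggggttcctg
RPA1: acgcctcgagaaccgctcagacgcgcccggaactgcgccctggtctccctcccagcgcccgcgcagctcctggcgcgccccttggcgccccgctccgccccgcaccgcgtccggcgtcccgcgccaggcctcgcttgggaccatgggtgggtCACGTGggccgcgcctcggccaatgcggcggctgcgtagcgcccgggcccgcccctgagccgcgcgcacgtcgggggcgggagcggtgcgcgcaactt

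These letters were counted in windows of 300 bases (250 before to 50 after the start) for the 8552 jointly tested genes that had an entry, on both strands. The E-box CACGTG, which reads the same on both strands, was in 10.9% of 506 promoters higher in both, 12.1% of 363 lower in both, 12% of 276 higher in EOL-1 and lower in MV4-11, and 11.2% of 179 of the reverse class, against 10.6% of all 8552. The E-box share was thus much alike in every class. The PU.1 core GAGGAAGT was in 4.74% of promoters higher in both, 3.86% lower in both, 3.62% higher in EOL-1 and lower in MV4-11 and 1.68% of the reverse class, against 2.67% of all. TGATGNAA, a composite element of CEBP and ATF factors, was in 3.16% of promoters higher in both, 1.65% lower in both, 2.17% higher in EOL-1 and lower in MV4-11 and 0 of 179 of the reverse class, against 1.5% of all. None of these motifs contains another. Matches are descriptions of letters, and no test was made.

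Gene counts per library were 24574102 to 30256823 in EOL-1 and 13313052 to 15043385 in MV4-11. CPM are counts scaled to a common library size by TMM, log2 fold changes are given ± SE, n = 2 libraries per group, and the MV4-11 effect is the mean of both guides minus sgEV. EZH2 had 27.8 and 26.1 CPM in the sgEZH2 libraries, against 70.7 and 70.4 CPM in the sgEV libraries of EOL-1 (-1.39 ± 0.05, adjusted p = 3.2e-13). MYC had 866 and 872 CPM with guide 1 and 818 and 822 CPM with guide 5, against 658 and 660.4 CPM in the sgEV libraries of MV4-11 (0.36 ± 0.04, adjusted p = 1.3e-05). Transcripts can persist after a Cas9 cut, and the MYC level therefore checks neither label nor knockout. Accordingly, the libraries are called those labelled sgcMyc. In EOL-1, MYC did not pass the test (-0.04 ± 0.03, adjusted p = 0.354), and EZH2 was slightly lower with the libraries labelled sgcMyc (-0.19 ± 0.06, adjusted p = 0.0183), a call lost with DESeq2 (adjusted p = 0.160), with spike-in scaling (0.546) and without sgEV library 1 (0.228). The leukocyte antigen PTPRC, CD33, the transcription factor SPI1 and LYZ were present in every library of both lines. The eosinophil genes EPX, CLC, IL5RA and SIGLEC8 have no row in the tables used here, so the eosinophil label of EOL-1 was not checked against them. The mitochondrial share of counts was 1.14% in each sgEZH2 library, against 1.05 to 1.06% in sgEV, and 3.14 to 3.44% in the libraries labelled sgcMyc, against 2.47% and 2.41% in sgEV. This share moves with both comparisons, and its part in the results was not tested.

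Among markers of other cell types, 1 of 11 T and NK cell markers was tested in EOL-1 and 2 in MV4-11, and CD3D, CD3E and CD3G have no row. Their summed level was 90.1 to 98.4 CPM with sgEZH2, against 109 to 112 CPM with sgEV, and 61.6 to 68.5 CPM with sgcMyc, against 81 to 85.6 CPM with sgEV. B and plasma cell markers (3 of 7 with rows in each line, MS4A1 and PAX5 with none) summed to 7.77 to 9.18 CPM with sgEZH2, against 4.64 to 5.04 CPM with sgEV, and to 2.2 to 3.96 CPM with sgcMyc, against 3.3 to 3.6 CPM with sgEV. Erythroid and megakaryocyte markers had rows for 2 of 14 in EOL-1 and 4 in MV4-11, globins having none, and summed to 9.6 to 10.1 CPM with sgEZH2, against 13.2 to 14.2 CPM with sgEV, and to 33.3 to 47 CPM with sgcMyc, against 38.5 to 42.1 CPM with sgEV. None of these lists rose in both lines. Mast cell, basophil and eosinophil markers (2 of 13 in EOL-1 and 4 in MV4-11) were low, with sums of 1.2 to 1.36 CPM with sgEZH2, against 0.658 to 1.05 CPM with sgEV, and 4.82 to 5.81 CPM with sgcMyc, against 2.55 to 3.93 CPM with sgEV. Epithelial, stromal and endothelial markers (2 of 12 in EOL-1 and 4 in MV4-11) summed to 16.7 to 17.2 CPM with sgEZH2, against 9.47 to 9.79 CPM with sgEV, and to 288 to 314 CPM with sgcMyc, against 189 to 192 CPM with sgEV. Nearly all of that MV4-11 sum is PECAM1, an adhesion molecule that monocytes also carry, at 284 to 311 CPM with sgcMyc, against 182 to 184 CPM with sgEV. The defining genes EPCAM and CDH5 have no row.

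The class higher in both lines held 701 genes (5.52% of those tested in both), the class lower in both 472 (3.71%), the class higher in EOL-1 and lower in MV4-11 392 (3.08%) and the class lower in EOL-1 and higher in MV4-11 239 (1.88%). In EOL-1, 1943 jointly tested genes were higher (15.3%) and 1577 lower (12.4%), and in MV4-11 2453 were higher (19.3%) and 2389 lower (18.8%). Genes higher in both made up 36.1% of those higher in EOL-1 and 28.6% of those higher in MV4-11, while genes lower in both made up 29.9% and 19.8% of the lower ones. Of genes higher in EOL-1, 20.2% were lower in MV4-11, and of genes lower in EOL-1, 15.2% were higher there. The signs matched for 65.0% of genes called in both, against 53.8% of all jointly tested genes. Across all 12709 genes, which are not independent replicates, Pearson's r of the log2 fold changes was 0.17 and Spearman's rho 0.14, values given as a description. With DESeq2 the 4 classes, in the same order, held 362, 171, 150 and 73 genes.

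**Figure D1:**
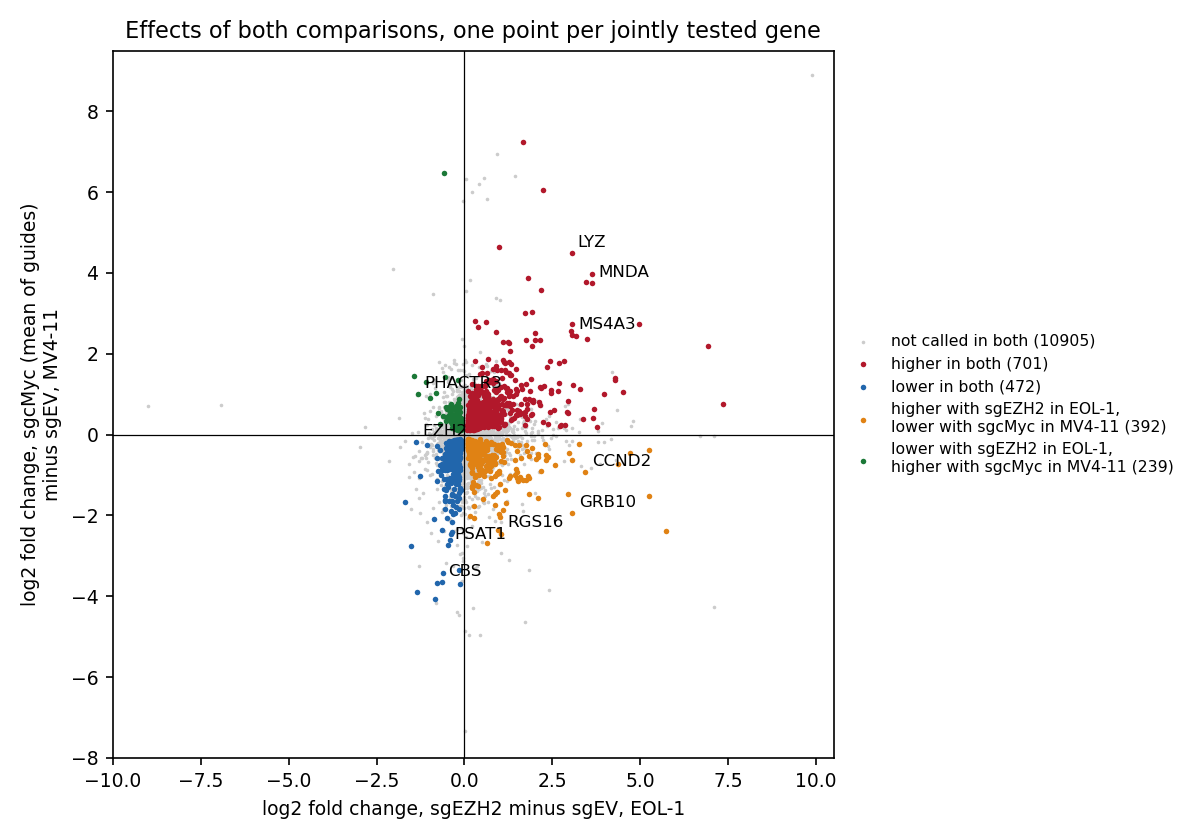
Log2 fold change of each of the 12709 jointly tested genes, with sgEZH2 minus sgEV in EOL-1 on the x axis and the mean of both sgcMyc guides minus sgEV in MV4-11 on the y axis, coloured by direction class. The class higher in both (701 genes) holds 72 genes changed at least 2-fold on both axes, LYZ, MNDA and MS4A3 among them, and the class lower in both holds 4.

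Effects were small in most classes. The median log2 fold changes were 0.39 in EOL-1 and 0.45 in MV4-11 for genes higher in both, and -0.24 and -0.35 for genes lower in both. They were 0.32 and -0.41 for genes higher in EOL-1 and lower in MV4-11, and -0.19 and 0.26 for the reverse class. A change of at least 2-fold in both comparisons was seen for 72 genes higher in both and for 4 lower in both, and for 23 and 2 genes of the opposite classes. Guides 1 and 5 were each called on their own for 551 of the 701 genes higher in both, 357 of the 472 lower in both, 293 of the 392 and 153 of the 239, where guide 1 called 16.2% of 13948 genes higher and 16.0% lower and guide 5 15.7% and 15.5%. The classes were chosen on the mean of these same guide libraries, so the agreement of the guides within a class follows largely from the choice. The share of all genes called with both guides is not given here. At the edge of the call, DLAT was inside with an adjusted p of 0.0499 in MV4-11 and ATG4D just outside with 0.05.

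Many genes of myeloid maturation, here taken to include the early granule genes of progenitors, were in the class higher in both. That class holds 5.52% of all jointly tested genes. The share differed by list. It was 12 of 16 early granule genes, 9 of 22 class I genes, 9 of 30 myeloid transcription factors and 4 of 14 S100 and annexin genes. The lists were chosen with earlier results of these data known. Lysozyme (LYZ), which degrades bacterial cell walls, had 1626 and 1654 CPM in the sgEZH2 libraries, against 202 and 195 CPM in the sgEV libraries of EOL-1. In MV4-11, LYZ had 3707 and 3726 CPM with guide 1 and 3383 and 3486 CPM with guide 5, against 159 and 158 CPM in the sgEV libraries of MV4-11. Every library of the targeted groups stood far above every control library in both lines, by 3.05 ± 0.03 in EOL-1 (adjusted p = 1.7e-20) and 4.50 ± 0.05 in MV4-11 (adjusted p = 3.8e-14). Because the samples are bulk, more cells of a mature kind and more RNA per cell cannot be told apart, for this gene and those that follow. MNDA, a nuclear antigen of myelomonocytic cells, had 3.59 and 5.54 CPM in the sgEZH2 libraries, against 0.329 and 0.393 CPM in the sgEV libraries of EOL-1. It had 6.61 and 7.34 CPM with guide 1 and 7.6 and 7.27 CPM with guide 5, against 0.375 and 0.674 CPM in the sgEV libraries of MV4-11. The groups did not overlap, and the effects were 3.63 ± 0.30 in EOL-1 (adjusted p = 3.2e-08) and 3.76 ± 0.24 in MV4-11 (adjusted p = 1.4e-07). The factor XIII A chain F13A1, made by monocytes and macrophages, had 12.2 and 10.6 CPM in the sgEZH2 libraries, against 3.22 and 2.78 CPM in the sgEV libraries of EOL-1. F13A1 had 33.5 and 31.2 CPM with guide 1 and 25.4 and 21.9 CPM with guide 5, against 3.82 and 2.92 CPM in the sgEV libraries of MV4-11. It too was higher in every targeted library (1.94 ± 0.13 in EOL-1 (adjusted p = 1.6e-09) and 3.03 ± 0.13 in MV4-11 (adjusted p = 2.7e-09)).

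The other 5 genes with the largest shared rise were FAM198B, CES1, a carboxylesterase of monocytes, MS4A3, a membrane protein of granulocyte and monocyte progenitors, the growth factor IGF1 and KCTD12. FAM198B had log2 fold changes of 3.62 and 3.98 in EOL-1 and MV4-11, CES1 of 2.17 and 3.59, IGF1 of 4.96 and 2.73 and KCTD12 of 2.43 and 1.83. IGF1 and KCTD12 were near the floor in the sgEV libraries of EOL-1, at 0.110 and 0.0328 CPM and 0.621 and 0.131 CPM, so their sizes there are loose. These 8 genes were chosen by the size of the smaller of both changes, with no overlap between groups, so their separation follows from the choice.

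Of the 22 lists plotted by class, early granule genes had the highest share in the class higher in both. Of 28 listed, 16 were tested in both, 12 of these were higher in both, 1 lower in both and none opposite. In EOL-1 13 of the 16 were called higher and 3 lower, and in MV4-11 12 higher and 1 lower. PRTN3, whose promoter with the PU.1 core is printed above, had 33.7 and 35.9 CPM in the sgEZH2 libraries, against 4.02 and 4.13 CPM in the sgEV libraries of EOL-1. It had 827 and 862 CPM with guide 1 and 867 and 941 CPM with guide 5, against 371 and 381 CPM in the sgEV libraries of MV4-11. The libraries separated in both lines (3.09 ± 0.09 in EOL-1 (adjusted p = 5.4e-15) and 1.22 ± 0.05 in MV4-11 (adjusted p = 1.2e-09)). Genes named within lists, here and below, were mostly picked for the smallest p over both comparisons. That their libraries separate follows largely from this choice. Of the 12709 jointly tested genes, 4058 met the rule on counts, symbol and no overlap in either comparison. MS4A3 had 22.4 and 21.2 CPM in the sgEZH2 libraries, against 3.0 and 2.23 CPM in the sgEV libraries of EOL-1. Its MV4-11 values were 539.5 and 541 CPM with guide 1 and 441 and 459.9 CPM with guide 5, against 90.1 and 89.8 CPM in the sgEV libraries of MV4-11. MS4A3 thus rose in both lines (3.07 ± 0.11 in EOL-1 (adjusted p = 4.0e-13) and 2.46 ± 0.04 in MV4-11 (adjusted p = 1.1e-12)). The granule antimicrobial azurocidin AZU1 rose by 1.43 and 1.34, the eosinophil-derived neurotoxin RNASE2 by 0.92 and 1.60, complement factor D (CFD) by 0.95 and 1.10 and serglycin (SRGN), the proteoglycan that packs granules, by 1.28 and 2.28 in EOL-1 and MV4-11. Myeloperoxidase (MPO), the enzyme of primary granules, rose in EOL-1 and did not pass in MV4-11, with 59.1 to 61.5 CPM in sgEZH2 libraries, against 18.3 to 18.9 CPM in sgEV (1.70, adjusted p = 5.9e-14). In MV4-11 MPO had 4.27 to 6.18 CPM in the libraries labelled sgcMyc, against 5.99 to 7.5 CPM in sgEV (-0.33, adjusted p = 0.136). The difference of effects for MPO passed its own test (2.01 ± 0.17, adjusted p = 3.6e-07).

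**Figure D2:**
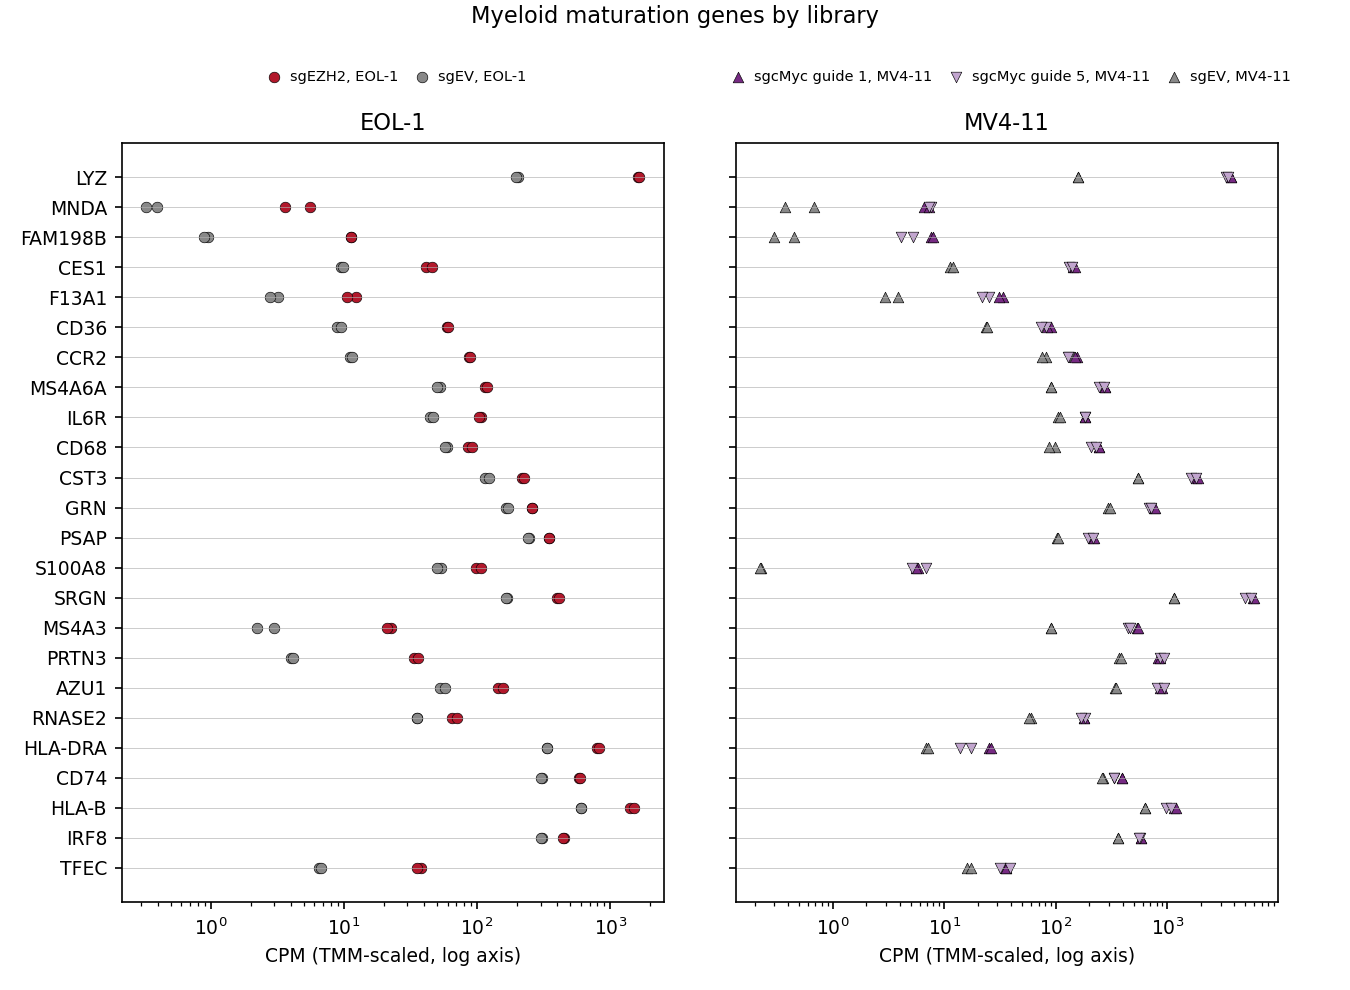
TMM-scaled CPM on a log axis in each library for 24 maturation genes, early granule genes of progenitors such as PRTN3, AZU1 and MS4A3 included. EOL-1 is on the left and MV4-11 on the right, with 1 point per library and the targeted groups coloured. In every row the coloured points lie to the right of the grey sgEV points of the same line. All 24 genes were picked from the class higher in both, so this separation follows largely from the choice. Maturation genes outside that class, such as MPO and JDP2, are not shown.

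Surface receptors of monocytes and macrophages were measured for 41 of 62 listed genes, of which 23 were higher in both, none lower in both, 3 higher in EOL-1 and lower in MV4-11, and 1 the reverse. The medians of the list were 0.84 in EOL-1 and 0.57 in MV4-11, while those of all jointly tested genes were within 0.01 of 0. CD36, a scavenger receptor for oxidised lipids, had 59.2 and 60.4 CPM in the sgEZH2 libraries, against 8.92 and 9.56 CPM in the sgEV libraries of EOL-1. It had 90.9 and 83.2 CPM with guide 1 and 81.8 and 74.4 CPM with guide 5, against 23.8 and 24.4 CPM in the sgEV libraries of MV4-11. All targeted libraries were above their controls (2.69 ± 0.06 in EOL-1 (adjusted p = 9.8e-16) and 1.78 ± 0.07 in MV4-11 (adjusted p = 1.3e-09)). As for PRTN3, the choice by p favours this separation. CCR2, the chemokine receptor that brings monocytes out of the marrow, had 87.2 and 88 CPM in the sgEZH2 libraries, against 11.2 and 11.5 CPM in the sgEV libraries of EOL-1. It had 154 and 149 CPM with guide 1 and 132 and 129 CPM with guide 5, against 81.4 and 75.7 CPM in the sgEV libraries of MV4-11. The rise was larger in EOL-1 (2.95 ± 0.06 in EOL-1 (adjusted p = 5.2e-17) and 0.84 ± 0.05 in MV4-11 (adjusted p = 4.7e-08)), and the difference of effects passed its own test (2.09 ± 0.07, adjusted p = 3.1e-11). MS4A6A rose by 1.20 and 1.54, the interleukin-6 receptor IL6R by 1.20 and 0.78, the chemokine receptor CCR1 by 1.07 and 0.76 and the endosomal glycoprotein CD68 by 0.61 and 1.32 in EOL-1 and MV4-11.

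Lysosomal and secreted macrophage proteins showed the same direction. Of 46 listed, 32 were tested in both, 21 were higher in both, none lower in both, 2 higher in EOL-1 and lower in MV4-11 and none the reverse, with medians of 0.28 and 0.46. Cystatin C (CST3), an inhibitor of cathepsins, had 216 and 225 CPM in the sgEZH2 libraries, against 115 and 123 CPM in the sgEV libraries of EOL-1. It had 1816 and 1880.0 CPM with guide 1 and 1635 and 1820.0 CPM with guide 5, against 551 and 543 CPM in the sgEV libraries of MV4-11. The MV4-11 change was the larger (0.89 ± 0.04 in EOL-1 (adjusted p = 4.1e-12) and 1.71 ± 0.05 in MV4-11 (adjusted p = 1.1e-10)), by a tested difference of -0.84 ± 0.07, adjusted p = 4.2e-07. Progranulin (GRN), a lysosomal regulator, changed by 0.63 and 1.29 in EOL-1 and MV4-11, prosaposin (PSAP), the precursor of sphingolipid activators, by 0.52 and 1.03 and the carboxypeptidase CTSZ by 0.69 and 0.70. For CTSZ the difference of effects did not pass (adjusted p = 0.835), which does not show that both lines changed equally.

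The S100 and annexin list had 4 of 14 tested genes higher in both and none in any other class. S100A8 and S100A9 form calprotectin, an abundant protein of neutrophils and monocytes. S100A8 had 98 and 106 CPM in the sgEZH2 libraries, against 53.1 and 50.4 CPM in the sgEV libraries of EOL-1. It had 5.86 and 5.61 CPM with guide 1 and 5.11 and 6.84 CPM with guide 5, against 0.225 and 0.225 CPM in the sgEV libraries of MV4-11. It was higher in every targeted library (0.98 ± 0.05 in EOL-1 (adjusted p = 2.5e-11) and 4.65 ± 0.32 in MV4-11 (adjusted p = 2.0e-07)), but the MV4-11 controls held 6 counts in all. S100A9 had 69.8 and 79.2 CPM in the sgEZH2 libraries, against 23 and 23.7 CPM in the sgEV libraries of EOL-1 (1.67 ± 0.06). In MV4-11, 728 counts over 4 libraries labelled sgcMyc stood against 2 counts over 2 sgEV libraries, a ratio of 169 with a 95% counting interval of 46.6 to 1400.0. That interval covers counting error only. The phospholipid-binding annexin ANXA5 changed by 1.94 and 0.81 and ANXA6 by 0.76 and 0.71 in EOL-1 and MV4-11. ANXA1 rose in EOL-1 (2.66 ± 0.29) and did not pass in MV4-11 (0.17 ± 0.07, adjusted p = 0.0632), but guide 5 alone was called (0.34, adjusted p = 0.00447) and guide 1 alone was not (adjusted p = 0.995), and spike-in scaling (0.0413), limma (0.0480) and the fit without guide 5 library 2 (0.0242) also gave a call. ANXA2 passed in MV4-11 (0.31 ± 0.05) and not in EOL-1 (0.08 ± 0.04, adjusted p = 0.096). The difference of effects passed for both (2.46 ± 0.24, adjusted p = 1.9e-06, and -0.25 ± 0.06, adjusted p = 0.00593). ANXA6 lost its EOL-1 call with DESeq2 (adjusted p = 0.179).

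All 7 genes of the phagocyte NADPH oxidase, which makes superoxide, were tested, and 4 were higher in both. The membrane subunits CYBA and CYBB changed by 0.19 and 0.45 and by 0.11 and 1.08 in EOL-1 and MV4-11, where the EOL-1 call of CYBB was lost with DESeq2 (adjusted p = 0.344) and without EOL-1 sgEV library 1 (0.319). NCF1 changed by 2.93 and 0.56, but near-identical pseudogenes make its counts uncertain. RAC1 and NCF4 passed in MV4-11 (0.23 ± 0.05 and 0.21 ± 0.05) and not in EOL-1 (-0.05 ± 0.03 and 0.02 ± 0.04), and the difference of effects passed for both (-0.30 ± 0.06, adjusted p = 0.00175, and -0.21 ± 0.06, adjusted p = 0.0196). NCF4 lost its MV4-11 call without sgEV library 1 (adjusted p = 0.147), and its difference was lost there (0.143), without EOL-1 sgEV library 1 (0.0566) or 2 (0.0771), without sgEZH2 library 1 (0.0620) and with DESeq2 (0.116). RAC1 lost its MV4-11 call without sgEV library 2 (0.0561).

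Several antigen presentation genes rose in both lines. Of 19 listed class II genes 12 were tested, 7 were higher in both and none fell into another class, with medians of 1.39 in EOL-1 and 0.39 in MV4-11. HLA-DRA had 799.5 and 823 CPM in the sgEZH2 libraries, against 334 and 334 CPM in the sgEV libraries of EOL-1. It had 25 and 26.2 CPM with guide 1 and 13.7 and 17.4 CPM with guide 5, against 6.82 and 7.12 CPM in the sgEV libraries of MV4-11. The groups were apart in both lines (1.28 ± 0.03 in EOL-1 (adjusted p = 1.6e-15) and 1.52 ± 0.12 in MV4-11 (adjusted p = 8.5e-07)), guide 5 giving lower levels than guide 1. The invariant chain CD74 changed by 0.95 and 0.46 and the class II transactivator CIITA by 0.35 and 0.76 in EOL-1 and MV4-11, though CIITA lost both calls with DESeq2 (adjusted p = 0.0784 and 0.0797). HLA-DRB1 changed by 1.71 and 0.56, HLA-DRB5 by 1.95 and 0.86 and HLA-DQB1 by 2.26 and 1.20. HLA-DQB1 in EOL-1 rested on levels under 1 CPM, and its EOL-1 call was lost with DESeq2 (adjusted p = 0.212). All 22 class I pathway genes were tested: 9 were higher in both, 1 was higher in EOL-1 and lower in MV4-11, and the medians were 0.42 and 0.27. HLA-B had 1397 and 1515 CPM in the sgEZH2 libraries, against 604 and 605 CPM in the sgEV libraries of EOL-1. It had 1146 and 1188 CPM with guide 1 and 967 and 1085 CPM with guide 5, against 637 and 630.5 CPM in the sgEV libraries of MV4-11. It rose in every targeted library (1.27 ± 0.04 in EOL-1 (adjusted p = 2.1e-14) and 0.79 ± 0.05 in MV4-11 (adjusted p = 1.3e-07)), as did HLA-C (1.15 and 0.73), HLA-G (1.13 and 0.73), the class I light chain B2M (0.36 and 0.60) and the immunoproteasome subunit PSMB10 (0.21 and 0.30). Reads of these closely related HLA genes could be split in counting, which leaves single values uncertain.

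Transcription factors of the myeloid lineage were mixed. Of 38 listed 30 were tested, and 9 were higher in both, 2 lower in both, 1 higher in EOL-1 and lower in MV4-11 and 1 the reverse. The medians were 0.17 and 0.13, and the mean in MV4-11 was -0.07, of the other sign. IRF8, which directs monocyte fate, had 446 and 439.9 CPM in the sgEZH2 libraries, against 306 and 302 CPM in the sgEV libraries of EOL-1. It had 583 and 584 CPM with guide 1 and 572 and 559.5 CPM with guide 5, against 360.0 and 361 CPM in the sgEV libraries of MV4-11. The groups did not overlap (0.54 ± 0.03 in EOL-1 (adjusted p = 1.7e-10) and 0.67 ± 0.04 in MV4-11 (adjusted p = 4.3e-08)). TFEC, a factor of macrophages related to MITF, changed by 2.46 and 1.09 in EOL-1 and MV4-11 and IRF5, a factor of inflammatory macrophages, by 0.58 and 0.62. IRF4 changed by 2.43 and 0.56, but guide 5 on its own gave an adjusted p of 0.754. SPI1 (PU.1) changed by 0.26 in EOL-1 (adjusted p = 6.1e-05) and by 0.11 in MV4-11 (adjusted p = 0.0451). JDP2, an AP-1 repressor, was lower in both (-0.32 and -1.97), and NFIL3 was higher in EOL-1 and lower in MV4-11 (0.41 and -0.56), the EOL-1 calls of both being lost with DESeq2 (adjusted p = 0.132 and 0.120).

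**Figure D3:**
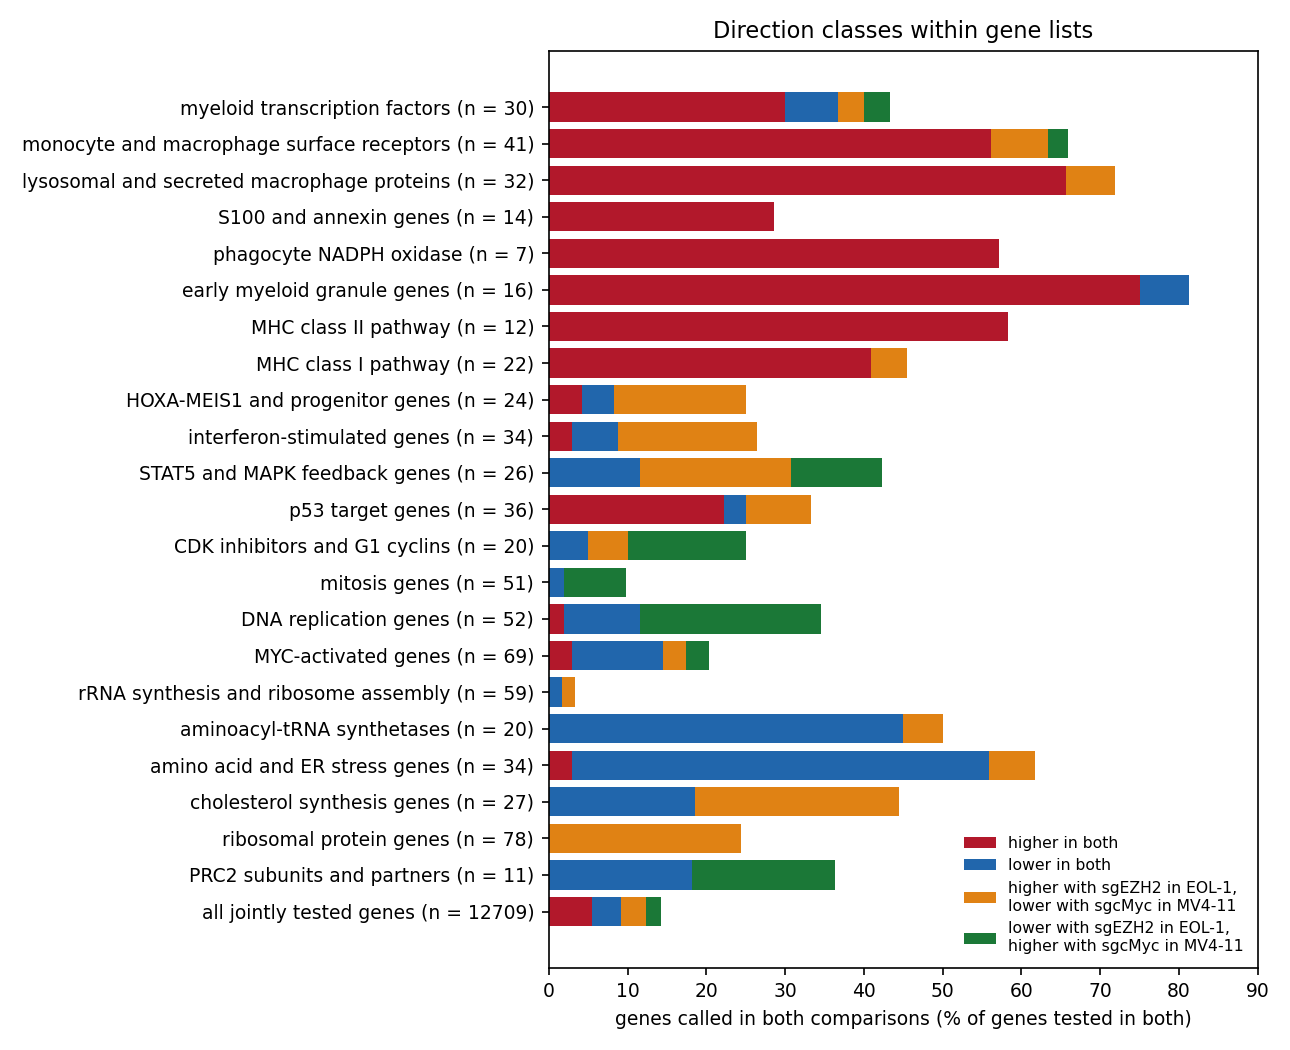
Share of each gene list that fell into each direction class, in % of its genes tested in both comparisons, with all 12709 jointly tested genes at the bottom. More than 50% of the granule, lysosomal, receptor, oxidase and class II lists is in the class higher in both, while the amino acid list (18 of 34) and the aminoacyl-tRNA synthetase list (9 of 20) have their largest share lower in both.

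Genes of amino acid supply were frequent in the class lower in both. Of 38 listed amino acid and endoplasmic reticulum stress genes 34 were tested, 18 were lower in both, 1 was higher in both and 2 were higher in EOL-1 and lower in MV4-11. In EOL-1 18 were called lower and 3 higher, and in MV4-11 30 lower and 2 higher, with medians of -0.14 and -1.38. PSAT1, the aminotransferase of serine synthesis, had 129 and 122 CPM in the sgEZH2 libraries, against 172 and 172 CPM in the sgEV libraries of EOL-1. It had 87 and 90.9 CPM with guide 1 and 97.7 and 97.6 CPM with guide 5, against 622 and 621 CPM in the sgEV libraries of MV4-11. Both lines fell (-0.45 ± 0.04 in EOL-1 (adjusted p = 2.6e-08) and -2.74 ± 0.04 in MV4-11 (adjusted p = 5.9e-14)), MV4-11 by far more (difference 2.27 ± 0.05, adjusted p = 1.4e-13). SLC7A5, the leucine transporter whose E-box promoter is printed above, had 593 and 572 CPM in the sgEZH2 libraries, against 689 and 689 CPM in the sgEV libraries of EOL-1. It had 264 and 271 CPM with guide 1 and 315 and 287 CPM with guide 5, against 976 and 977 CPM in the sgEV libraries of MV4-11. The groups were apart in both lines (-0.24 ± 0.03 in EOL-1 (adjusted p = 1.2e-05) and -1.78 ± 0.04 in MV4-11 (adjusted p = 1.1e-11)). PSPH, the last enzyme of serine synthesis, changed by -0.36 and -1.49 and the glutamine transporter SLC38A2 by -0.20 and -1.05 in EOL-1 and MV4-11. The chaperone HSPA5, the exception, was higher in both (0.32 and 0.32). The cystathionine synthase CBS (-0.64 and -3.66) and the peptide hormone gene ADM2 (-0.79 and -3.68), an output of the amino acid stress response, were among the 8 genes with the largest shared fall. CBS has a near-identical copy, and the EOL-1 call of ADM2 was lost with DESeq2 (adjusted p = 0.140).

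All 20 aminoacyl-tRNA synthetase genes, which charge tRNAs, were tested, and 9 were lower in both and 1 higher in EOL-1 and lower in MV4-11. The medians were -0.10 and -0.80. GARS, for glycine, had 233 and 247 CPM in the sgEZH2 libraries, against 278 and 282 CPM in the sgEV libraries of EOL-1. It had 142 and 147 CPM with guide 1 and 156 and 153 CPM with guide 5, against 469.6 and 459.5 CPM in the sgEV libraries of MV4-11. Its fall was small in EOL-1 and large in MV4-11 (-0.22 ± 0.03 in EOL-1 (adjusted p = 7.8e-05) and -1.64 ± 0.04 in MV4-11 (adjusted p = 8.8e-12)). YARS changed by -0.21 and -1.17, MARS by -0.23 and -0.95, IARS by -0.21 and -1.05, EPRS by -0.19 and -1.01 and LARS by -0.13 and -0.81 in EOL-1 and MV4-11, and the difference of effects passed for each of these 6 genes, at 0.67 to 1.40.

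The other genes of the largest shared fall were the microtubule protein MAP1A (-0.79 and -1.15), the proton-gated channel ASIC1 (-0.76 and -0.91), PRX (-0.70 and -0.74), the G protein modulator GPSM1 (-0.65 and -0.81), the H3 lysine 27 demethylase KDM6B (-0.64 and -0.89) and NPIPB5 (-0.66 and -1.01), a member of a family of near-identical copies. KDM6B removes the mark that EZH2 lays down. It had 5.49 and 5.67 CPM in the sgEZH2 libraries, against 8.92 and 8.52 CPM in the sgEV libraries of EOL-1, and 37.8 and 38.8 CPM with guide 1 and 40.4 and 33 CPM with guide 5, against 70.9 and 67.7 CPM in the sgEV libraries of MV4-11. Each targeted library was below its controls, which the choice of the genes named per class required. Its difference of effects did not pass (adjusted p = 0.244). PRX lost its MV4-11 call without sgEV library 1 (adjusted p = 0.0747) and NPIPB5 its EOL-1 call with DESeq2 (0.179).

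Of 70 listed MYC-activated genes 69 were tested, 8 were lower in both, 2 higher in both, and 2 in each opposite class. In MV4-11 25 were lower and 12 higher, and in EOL-1 14 lower and 6 higher. Of all jointly tested genes, 18.8% were lower and 19.3% higher in MV4-11, and 12.4% lower and 15.3% higher in EOL-1. The class lower in both held 3.71% of all and the class higher in both 5.52%. The median in MV4-11 was -0.06, turning to 0.05 with spike-in scaling, and the median in EOL-1 was -0.03 with a mean of 0.00. Fatty acid synthase FASN was lower in both (-0.41 and -0.52), as were the transferrin receptor TFRC (-0.39 and -0.26) and the purine enzyme GART (-0.17 and -0.29), while the polyamine enzyme ODC1 was higher in both (0.23 and 0.33) and TMEM97 was higher in EOL-1 and lower in MV4-11 (0.24 and -0.44). TFRC and GART were not called in MV4-11 with spike-in scaling (adjusted p = 0.179 and 0.0718). CDK4, with 3 E-boxes in the printed promoter, had 170.4 and 188 CPM in the sgEZH2 libraries, against 206 and 202 CPM in the sgEV libraries of EOL-1. It had 127 and 129.9 CPM with guide 1 and 132 and 148 CPM with guide 5, against 154 and 155 CPM in the sgEV libraries of MV4-11. It was lower in every targeted library, by little (-0.19 ± 0.04 in EOL-1 (adjusted p = 0.00281) and -0.20 ± 0.05 in MV4-11 (adjusted p = 0.00667)), and its MV4-11 call was lost with spike-in scaling (adjusted p = 0.316). Of 59 tested genes of rRNA synthesis and ribosome assembly, 1 (NOLC1, -0.16 and -0.19) was lower in both and 1 (TAF1D, 0.20 and -0.41) higher in EOL-1 and lower in MV4-11. NOLC1 lost its MV4-11 call with spike-in scaling (adjusted p = 0.547) and without sgEV library 1 (0.129) or 2 (0.0543), and TAF1D its EOL-1 call with DESeq2 (0.0751). In MV4-11 20 of the 59 were lower and 4 higher, in EOL-1 5 and 4, and the MV4-11 median of -0.10 became 0.02 with spike-in scaling.

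The genes with the largest opposite changes, higher in EOL-1 and lower in MV4-11, had varied roles. GRB10, an adaptor that dampens insulin receptor signalling, had 6.72 and 6.12 CPM in the sgEZH2 libraries, against 0.731 and 0.786 CPM in the sgEV libraries of EOL-1. It had 21.8 and 21.9 CPM with guide 1 and 21.9 and 19.9 CPM with guide 5, against 80.7 and 83.3 CPM in the sgEV libraries of MV4-11. The libraries moved apart in opposite directions (3.07 ± 0.19 in EOL-1 (adjusted p = 7.9e-10) and -1.94 ± 0.06 in MV4-11 (adjusted p = 9.5e-11)). Groups without overlap were a condition for naming a gene per class, so this separation follows from the choice. ENPP2, which encodes autotaxin, the enzyme that makes lysophosphatidic acid, had 35.8 and 36.9 CPM in the sgEZH2 libraries, against 8.85 and 8.32 CPM in the sgEV libraries of EOL-1. It had 7.78 and 6.54 CPM with guide 1 and 5.68 and 6.7 CPM with guide 5, against 21.1 and 18.7 CPM in the sgEV libraries of MV4-11. Its effects were 2.08 ± 0.07 in EOL-1 (adjusted p = 1.2e-13) and -1.58 ± 0.11 in MV4-11 (adjusted p = 3.5e-07). RGS16, a brake on G protein signalling, changed by 1.04 and -2.45 in EOL-1 and MV4-11, EPS8, an actin regulator, by 2.94 and -1.47, DPYSL3 by 1.19 and -1.68, the phosphatase PTPN3 by 1.17 and -1.37, the adhesion molecule CADM1 by 1.28 and -1.08 and the interferon-induced GTPase GBP2 by 1.01 and -1.23. CADM1 lost its MV4-11 call without sgEV library 1 (adjusted p = 0.220) and with DESeq2 (0.0728).

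Interferon-stimulated genes, ribosomal protein genes and sterol genes each had members in this class. Of 48 interferon-stimulated genes 34 were tested, 6 were higher in EOL-1 and lower in MV4-11, 1 was higher in both and 2 lower in both. In EOL-1 12 were called higher and 4 lower, and in MV4-11 2 higher and 15 lower. Their medians were 0.23 and -0.12, and the MV4-11 median was at 0.00 with spike-in scaling. Of all jointly tested genes, 3.08% were higher in EOL-1 and lower in MV4-11. Those called higher and lower were 15.3% and 12.4% of all in EOL-1, and 19.3% and 18.8% in MV4-11. The RNA sensor family member DDX60 had 16.9 and 14.1 CPM in the sgEZH2 libraries, against 4.17 and 4.49 CPM in the sgEV libraries of EOL-1. It had 1.45 and 1.2 CPM with guide 1 and 1.28 and 0.936 CPM with guide 5, against 3.9 and 2.85 CPM in the sgEV libraries of MV4-11. The lines moved oppositely (1.84 ± 0.11 in EOL-1 (adjusted p = 6.4e-10) and -1.47 ± 0.26 in MV4-11 (adjusted p = 7.3e-04)). LGALS3BP changed by 1.49 and -0.92 in EOL-1 and MV4-11 and the transcription factor IRF1 by 0.41 and -0.33, while IFITM1, which blocks viral entry, was lower in both (-1.08 and -0.26) and TRIM22 higher in both (0.24 and 0.34). The MV4-11 calls of IRF1 and IFITM1 were lost with spike-in scaling (adjusted p = 0.0589 and 0.126).

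All 78 ribosomal protein genes were tested, 19 were higher in EOL-1 and lower in MV4-11, and the other 59 fell into no class. In EOL-1 26 were called higher and none lower, with a median of 0.08, and in MV4-11 69 were lower and none higher, with a median of -0.23. RPL23 had 1010.0 and 1075 CPM in the sgEZH2 libraries, against 911 and 882 CPM in the sgEV libraries of EOL-1. It had 651 and 682 CPM with guide 1 and 640.1 and 702 CPM with guide 5, against 758 and 766 CPM in the sgEV libraries of MV4-11. The shifts were small against the levels (0.22 ± 0.03 in EOL-1 (adjusted p = 1.3e-04) and -0.19 ± 0.05 in MV4-11 (adjusted p = 0.0058)). RPL27A changed by 0.15 and -0.21, RPSA by 0.15 and -0.22, RPL10A by 0.13 and -0.23, RPS28 by 0.14 and -0.18 and RPL17 by 0.12 and -0.28. Of these, RPL23, RPL27A, RPSA and RPS28 were not called in MV4-11 with spike-in scaling (adjusted p = 0.240, 0.0845, 0.0540 and 0.340), and RPL17, RPL27A, RPSA, RPL10A and RPS28 not in EOL-1 without sgEV library 2 (0.133 to 0.232). Ribosomal protein genes have many processed pseudogenes, so their counts are uncertain.

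Sterol genes were split. Of 28 cholesterol synthesis genes 27 were tested, 7 were higher in EOL-1 and lower in MV4-11 and 5 lower in both. In MV4-11 26 of 27 were lower and 1 higher (median -0.53), and in EOL-1 7 were higher and 5 lower (median 0.03). INSIG1, the sterol-sensing brake of SREBP, changed by 0.17 and -0.51 in EOL-1 and MV4-11, the desaturase FADS2 by 0.61 and -0.78 and the sterol carrier STARD4 by 1.00 and -0.91. The desaturase SCD (-0.25 and -0.73) and ACAT2 (-0.20 and -0.52) were lower in both.

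Cyclin D2 (CCND2), which activates G1 kinases, had 10.3 and 10.0 CPM in the sgEZH2 libraries, against 0.768 and 1.08 CPM in the sgEV libraries of EOL-1. It had 29.2 and 27.9 CPM with guide 1 and 29.2 and 25.1 CPM with guide 5, against 51.1 and 54.7 CPM in the sgEV libraries of MV4-11. It was higher in EOL-1 and lower in MV4-11 (3.44 ± 0.17 in EOL-1 (adjusted p = 1.8e-11) and -0.93 ± 0.07 in MV4-11 (adjusted p = 5.5e-07)), one of the largest differences of effect (4.35 ± 0.17, adjusted p = 9.0e-11). Of the 26 tested outputs of STAT5 and MAPK signalling, 5 were in this class, 3 lower in both and 3 in the reverse class. The kinase PIM1 was lower in both (-0.27 and -0.39), as were the ETS factors ETV4 (-0.61 and -0.77) and ETV5 (-0.21 and -0.90), PIM2 was higher in EOL-1 and lower in MV4-11 (0.18 and -0.67), and FOS was lower in EOL-1 and higher in MV4-11 (-0.38 and 0.76). The EOL-1 calls of ETV5 and PIM2 were lost with DESeq2 (adjusted p = 0.166 and 0.310), as was the MV4-11 call of ETV4 (0.0955).

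**Figure D4:**
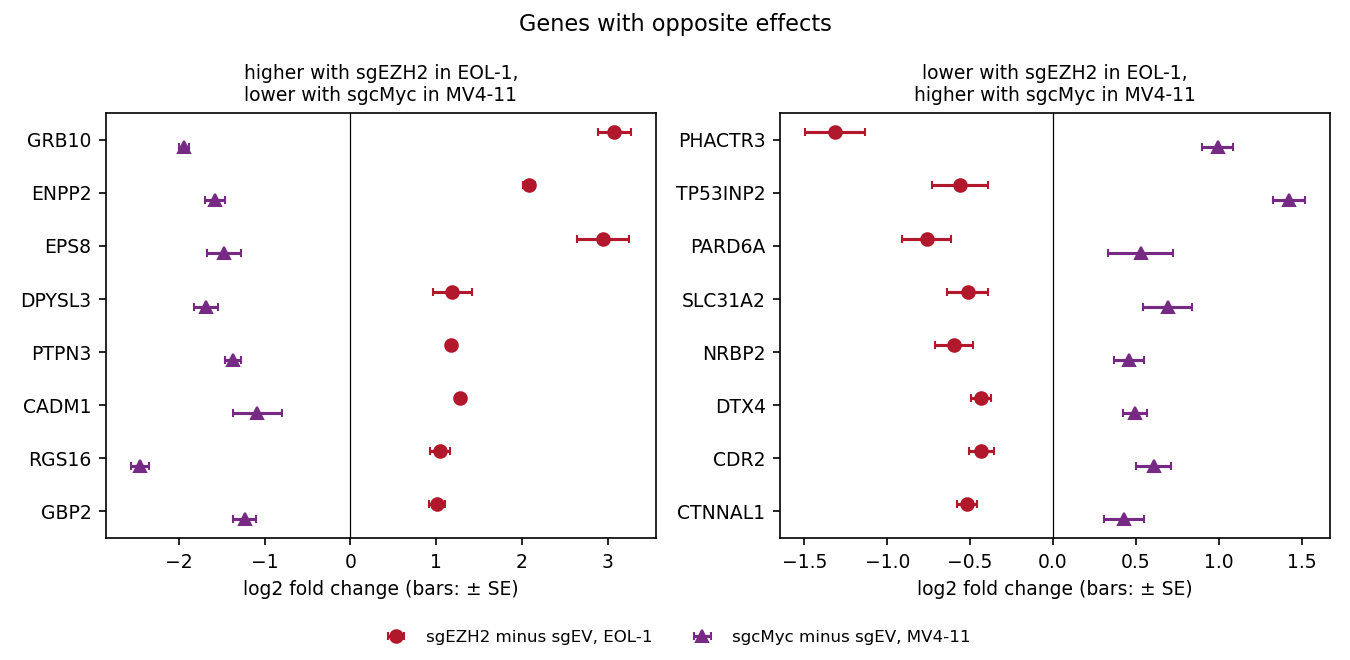
Log2 fold change ± SE of the 8 named genes of each opposite class, with sgEZH2 minus sgEV in EOL-1 as circles and sgcMyc minus sgEV in MV4-11 as triangles. GRB10 has the widest gap on the left, at 3.07 and -1.94, and PHACTR3 on the right, at -1.32 and 0.99.

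Genes lower in EOL-1 and higher in MV4-11 included DNA replication factors. All 52 listed were tested, 12 fell into this class, 5 were lower in both, 1 was higher in both and none was higher in EOL-1 and lower in MV4-11. In EOL-1 27 were lower and 1 higher, with a median of -0.12, and in MV4-11 26 were higher and 7 lower, with a median of 0.17. The replicative helicase subunit MCM4 had 639 and 637 CPM in the sgEZH2 libraries, against 731 and 731 CPM in the sgEV libraries of EOL-1. It had 498 and 502 CPM with guide 1 and 506 and 509.8 CPM with guide 5, against 414 and 393 CPM in the sgEV libraries of MV4-11. All libraries were apart from their controls, by less than 1.5-fold (-0.20 ± 0.03 in EOL-1 (adjusted p = 8.4e-05) and 0.32 ± 0.04 in MV4-11 (adjusted p = 4.5e-05)). RPA1, whose E-box promoter is printed above, changed by -0.19 and 0.37 in EOL-1 and MV4-11, thymidylate synthase TYMS by -0.17 and 0.33 and the polymerase subunit POLD3 by -0.30 and 0.32. The licensing factor CDT1 (-0.26 and -0.88) and the helicase subunit MCM6 (-0.15 and -0.19) were lower in both, MCM6 losing its MV4-11 call with spike-in scaling (adjusted p = 0.433).

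All 51 mitosis genes were tested, 4 were in this class, 1 was lower in both and 46 in none. In EOL-1 27 were lower and none higher (median -0.14), and in MV4-11 13 were higher and 2 lower (median 0.09). The checkpoint kinase BUB1 changed by -0.16 and 0.26 in EOL-1 and MV4-11, the cytokinesis genes ECT2 by -0.20 and 0.32 and ANLN by -0.15 and 0.37, cyclin A2 (CCNA2) by -0.10 and 0.17, and CENPF, a kinetochore protein, was lower in both (-0.39 and -0.30). The EOL-1 calls of ECT2, ANLN and CCNA2 were lost with DESeq2 (adjusted p = 0.201, 0.233 and 0.0568), that of BUB1 without EOL-1 sgEV library 2 (0.0533), and the MV4-11 call of CENPF with spike-in scaling (0.234).

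PHACTR3, a regulator of protein phosphatase 1, had 1.87 and 1.78 CPM in the sgEZH2 libraries, against 4.2 and 4.88 CPM in the sgEV libraries of EOL-1. It had 23.5 and 23.6 CPM with guide 1 and 21.1 and 23.5 CPM with guide 5, against 12.4 and 10.6 CPM in the sgEV libraries of MV4-11. It was lower in both sgEZH2 libraries and higher in all libraries labelled sgcMyc (-1.32 ± 0.18 in EOL-1 (adjusted p = 2.2e-05) and 0.99 ± 0.09 in MV4-11 (adjusted p = 4.4e-06)). Here too the separation was a condition of the choice. TP53INP2, an autophagy factor, changed by -0.56 and 1.42 in EOL-1 and MV4-11, the polarity protein PARD6A by -0.76 and 0.53, the copper transporter SLC31A2 by -0.52 and 0.69, NRBP2 by -0.60 and 0.46, the ubiquitin ligase DTX4 by -0.44 and 0.50, CDR2 by -0.43 and 0.61 and CTNNAL1 by -0.52 and 0.43. DESeq2 did not call TP53INP2, PARD6A, SLC31A2 and NRBP2 in EOL-1 (adjusted p = 0.319, 0.0624, 0.161 and 0.0582), nor PARD6A, SLC31A2 and CTNNAL1 in MV4-11 (0.327, 0.0501 and 0.166).

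The difference of the effects was tested in 1 fit over both tables, where 2095 of 13365 genes (15.7%) had the higher effect in EOL-1 and 1966 (14.7%) the lower. Among the 701 genes higher in both, 125 rose more in EOL-1 and 165 more in MV4-11, and for the other 411 the difference did not pass. Among the 472 genes lower in both, 142 fell more in MV4-11 and 9 more in EOL-1. That every gene of the opposite classes passed, 392 and 239, follows from the choice of the classes and is no result. The 6 largest positive differences were those of the ubiquitin ligase NEDD4, GRB10, EPS8, CCND2, the kinase NUAK1 and ENPP2. NEDD4 had 4.18 and 3.89 CPM in the sgEZH2 libraries, against 0.11 and 0.262 CPM in the sgEV libraries of EOL-1. It had 8.13 and 7.48 CPM with guide 1 and 7.45 and 7.05 CPM with guide 5, against 12.4 and 12.6 CPM in the sgEV libraries of MV4-11. It nearly lacked reads in EOL-1 controls (4.38 ± 0.32 in EOL-1 (adjusted p = 7.3e-09) and -0.73 ± 0.11 in MV4-11 (adjusted p = 1.6e-04)). The most negative differences were those of S100A9 and S100A8, which rest on 2 and 6 control counts in MV4-11, followed by the sulfotransferase SULT1B1, PHACTR3, NAV3 and TP53INP2. SULT1B1 changed by 0.31 and 2.80 in EOL-1 and MV4-11 and NAV3 by 0.39 and 2.66, both in the class higher in both, although the EOL-1 call of SULT1B1 was lost with DESeq2 (adjusted p = 0.493).

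The shEZH2 libraries of MV4-11, which no class used, gave a further readout with EZH2 itself left out. Of 12420 jointly tested genes measured there, 13.7% were higher and 14.3% lower, and over that whole table of 13591 genes 13.4% and 14.2%. Of 676 genes higher in both, 186 (27.5%) were higher with shEZH2 and 158 (23.4%) lower. Of 468 genes lower in both, 55 (11.8%) were higher and 128 (27.4%) lower. The class higher in EOL-1 and lower in MV4-11 had 83 of 378 higher (22.0%) and 107 lower (28.3%), and the reverse class 38 of 236 higher (16.1%) and 54 lower (22.9%). Genes higher in both were therefore called in both directions in these libraries. Genes lower in both, and also those of both opposite classes, were called lower more often than higher. The gap was widest for genes lower in both (27.4% lower and 11.8% higher). The median log2 fold change of each class there lay between -0.05 and 0.01.

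**Figure D5:**
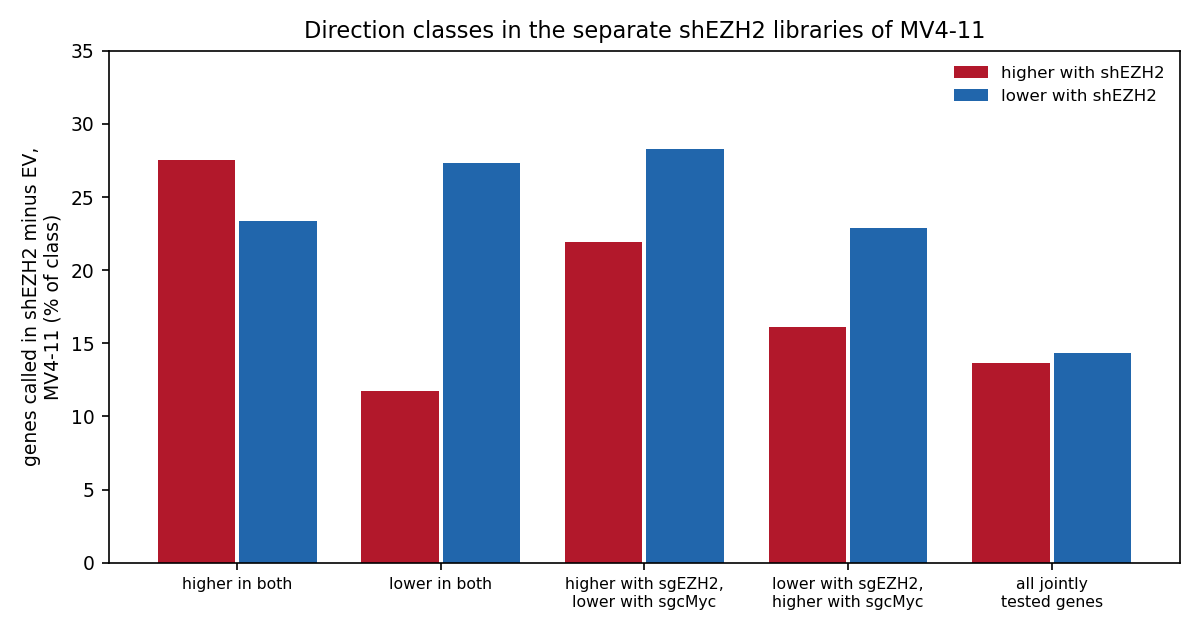
Share of each direction class, in %, that was called higher or lower with shEZH2 against EV in MV4-11, with all jointly tested genes measured there at the right. Genes lower in both stand at 11.8% higher and 27.4% lower, against 13.7% and 14.3% of all.

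Maturation lists did not all move one way with shEZH2. Of 32 lysosomal and secreted proteins measured there, 8 were higher and 18 lower (median -0.23), of 38 receptors 11 and 15 (median -0.22), of 7 oxidase genes 0 and 6 (median -0.26), of 11 S100 and annexin genes 3 and 6 (median -0.29), and of 15 early granule genes 8 and 5 (median 0.20). LYZ had 498 and 506 CPM in the shEZH2 libraries, against 186 and 202 CPM in the EV libraries of MV4-11 (1.37 ± 0.05, adjusted p = 2.0e-08), the same direction as in both other comparisons. CST3 had 533 and 559.5 CPM in the shEZH2 libraries, against 302 and 319.7 CPM in the EV libraries of MV4-11 (0.81 ± 0.04, adjusted p = 3.3e-07). MS4A3 had 201 and 201 CPM in the shEZH2 libraries, against 106 and 103 CPM in the EV libraries of MV4-11 (0.94 ± 0.04, adjusted p = 9.7e-08). Other genes of the class higher in both fell. CTSZ had 44.9 and 41.2 CPM in the shEZH2 libraries, against 100.4 and 108 CPM in the EV libraries of MV4-11 (-1.27 ± 0.06, adjusted p = 1.6e-07). ANXA5 had 20.1 and 21.1 CPM in the shEZH2 libraries, against 45.3 and 45.4 CPM in the EV libraries of MV4-11 (-1.14 ± 0.07, adjusted p = 6.4e-07). CYBB had 0.931 and 0.567 CPM in the shEZH2 libraries, against 3.62 and 3.64 CPM in the EV libraries of MV4-11 (-2.26 ± 0.30, adjusted p = 2.4e-04). These 6 genes were chosen after their values were seen, to show both directions. Amino acid and endoplasmic reticulum stress genes were lower in 19 of 34 cases and higher in 1 (median -0.21), and cholesterol synthesis genes lower in 23 of 27 (median -0.43). PSAT1 had 172 and 171 CPM in the shEZH2 libraries, against 309 and 306 CPM in the EV libraries of MV4-11 (-0.84 ± 0.04, adjusted p = 9.7e-08). Ribosomal protein genes were higher in 48 of 78 cases and lower in none (median 0.15), the direction seen in EOL-1 with sgEZH2 and not that in the libraries labelled sgcMyc.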

How the data were processed

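Total RNA was sequenced (RNeasy extraction and NEBNext Ultra II libraries, per the labels' protocols), and the tables hold gene rows for each library. The raw columns are estimated counts per gene, not normalised, which the authors deposited with decimals, and RSEM, DESeq and hg19 are named in the submitters' processing notes. The normalised columns hold log2 values that the authors deposited, and these served only in an alternative. The aligner, annotation, versions and strand use were not stated in labels, headers or notes, so overlapping and antisense genes cannot be told apart. Samples were grouped by their titles, and the shorter column names were matched to the titles by table, target, guide and replicate number.

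Counts were rounded and fitted within each table with edgeR 4.0.16 (R 4.3.3): filterByExpr, TMM, robust glmQLFit, glmQLFTest, Benjamini-Hochberg adjustment and a threshold of 0.05. Each SE is |log2 fold change| over the root of F. The difference of effects is a contrast in one edgeR fit of 10 libraries on the rows in both tables. The biological coefficient of variation was 0.0257 in EOL-1 and 0.0422 in MV4-11, and gene counts per library set the precision of low genes. The scripts were tested on simulated data. 56 spike-in rows of the MV4-11 table stayed out of library sizes, and 18 rows per table with a date for a symbol were tested and not named.

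Named genes are EZH2 and MYC, the 8 genes per class with the largest smaller change, the 6 per list with the smallest larger p, and the 6 per direction with the largest difference. Those per class and by difference needed at least 50 scaled counts in the higher group, no overlap between groups and a symbol that is no clone, antisense or small RNA. Members, classes and lists were chosen with earlier results of these data known, and some genes that meet the rule are described only within counts. Alternatives were DESeq2 1.42.0, limma 3.58.1, RLE and spike-in scaling, other filters and thresholds, a replicate block, single guides and each library left out. Motifs were counted in RefSeq promoters (GRCh38.p14), for names and sequence only.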

Additional observations from a re-analysis of the deposited data

How the results depend on the processing

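Counts of called genes depended on the test and the threshold, and no class count or named gene with a call reversed its direction. With DESeq2, 998 genes were higher and 646 lower in EOL-1, 1626 and 1542 in MV4-11, and 1318 and 1106 by difference of effects, and the classes held 362 higher in both, 171 lower in both, 150 higher in EOL-1 and lower in MV4-11 and 73 of the reverse. With spike-in scaling, 1169 genes were lower in MV4-11, 212 lower in both and 201 higher in EOL-1 and lower in MV4-11. That scaling moved the median of all genes in MV4-11 to 0.11, against 0.00 with TMM, and 72.8% of called genes were then higher, against 49.8%. At an adjusted p under 0.01, 936 genes were lower in EOL-1 and 1719 higher in MV4-11, with classes of 447, 241, 199 and 81 in the same order. Asking for a 1.5-fold change as well left 777 higher and 113 lower in EOL-1, 603 and 832 in MV4-11, and classes of 168, 20, 67 and 6. RLE scaling, no filter or a higher filter on counts, limma on the authors' log2 values, either guide alone and the fit without the robust step kept the counts per line and per class within 1.5 times where each was run. For the difference of effects, of these only RLE scaling was run (2120 higher and 1925 lower). The cause of these shifts was not tested.

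Leaving out each library in turn gave 1569 to 2022 genes higher and 1020 to 1942 lower in EOL-1, 1427 to 3094 higher and 1502 to 3082 lower in MV4-11, and 1649 to 2352 and 1361 to 2462 by difference. The classes then held 505 to 765 genes higher in both, 304 to 604 lower in both, 244 to 447 higher in EOL-1 and lower in MV4-11 and 109 to 330 of the reverse. The control libraries moved counts most: without EOL-1 sgEV library 1 or 2, 1061 or 1020 genes were lower in EOL-1 and 139 or 124 lower there and higher in MV4-11, and without library 2 314 were lower in both. Without MV4-11 sgEV library 1 or 2, 1427 or 1511 were higher and 1508 or 1502 lower there, 251 or 244 were higher in EOL-1 and lower in MV4-11, 109 or 124 the reverse, and without library 1 304 were lower in both.

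Same-numbered libraries of a targeted group and its controls did not deviate together (r = -0.253 in EOL-1, -0.0448 and -0.0109 for guides 1 and 5 with sgEV), while those of both MYC guides did (r = 0.285). Not every pair did so, and the numbers were taken to name libraries only. With the replicate block, 2077 genes were higher and 1699 lower in EOL-1, 2826 and 2831 in MV4-11, and the classes held 742, 546, 410 and 272. With the EOL-1 numbers crossed in the block, chosen after seeing the data, 2199 were higher and 1724 lower in EOL-1. Fold changes under about 1.2-fold rest on 2 libraries a group and on the scaling, and genes with few control counts have loose sizes.

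Calls of single genes were lost as follows, beside those given above. In EOL-1, DESeq2 did not call ANLN, CCNA2, ECT2, ETV5, HOXA11 and PIM2. The EOL-1 calls of BUB1, CCNA2, LARS, RPL10A, RPL17, RPL27A, RPS28, RPSA and SULT1B1 were lost without sgEV library 1 and also without library 2, those of ANXA6, HLA-DQB1 and RBBP4 without library 1 and those of ANLN, ECT2, ETV5, MCM6, PIM2, RBBP7 and TP53INP2 without library 2, while AEBP2 and CYBB lost theirs without either. In MV4-11, DESeq2 did not call AEBP2, CTNNAL1, ETV4, HOXA11, IKZF2, NUAK1, PARD6A, PRX, SLC31A2 and SUZ12. The MV4-11 calls of AEBP2, CCNA2, CDC25A, CDK4, CTNNAL1, EZH2, HOXA11, IKZF2, PARD6A, RBBP4, RPL10A, RPL23, RPL27A, RPS28, RPSA, SATB1 and SUZ12 were lost without sgEV library 1 and also without library 2, those of CDKN2C, CENPF, ETV4, MDM2, NUAK1 and PSMB10 without library 1 and those of CIITA and MCM6 without library 2. Guide 5 alone did not call CDK4, CIITA, CTNNAL1, EZH2, HOXA11, IKZF2, PARD6A and SUZ12, nor guide 1 alone CDC25A and SATB1. PARD6A also lost its MV4-11 call without the filter, without the robust step and with the replicate block.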

Other observations

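Targets of p53 were represented in the class higher in both lines. Of 40 listed 36 were tested, 8 were higher in both, 1 lower in both and 3 higher in EOL-1 and lower in MV4-11, with medians of 0.17 and 0.14 and a MV4-11 mean of -0.02. In EOL-1 17 were called higher and 2 lower, while MV4-11 was mixed, with 12 higher and 9 lower. Of all jointly tested genes, 5.52% were higher in both. Those called higher and lower were 15.3% and 12.4% of all in EOL-1, and 19.3% and 18.8% in MV4-11. The stress-response gene SESN1 had 43.1 and 41.9 CPM in the sgEZH2 libraries, against 25 and 24.2 CPM in the sgEV libraries of EOL-1. It had 26.1 and 28.6 CPM with guide 1 and 24.2 and 24 CPM with guide 5, against 19.1 and 19.1 CPM in the sgEV libraries of MV4-11. It rose in both lines (0.79 ± 0.06 in EOL-1 (adjusted p = 3.5e-09) and 0.43 ± 0.07 in MV4-11 (adjusted p = 6.9e-04)), as did the p53 antagonist MDM2 (0.32 and 0.25), PLK2 (0.91 and 0.63) and RPS27L (0.28 and 0.42). SESN2, which the amino acid stress response also drives, was lower in both (-0.32 and -1.73), a call lost in EOL-1 with DESeq2 (adjusted p = 0.105). CDKN1A, the gene of p21, which blocks cyclin-dependent kinases, had 165 and 164 CPM in the sgEZH2 libraries, against 51.5 and 53.1 CPM in the sgEV libraries of EOL-1. It had 199 and 207 CPM with guide 1 and 189.9 and 192 CPM with guide 5, against 204 and 216 CPM in the sgEV libraries of MV4-11. It rose in EOL-1 (1.65 ± 0.04) and did not pass in MV4-11 (-0.09 ± 0.04, adjusted p = 0.0964), and the difference of effects passed (1.73 ± 0.06, adjusted p = 1.3e-11). Of 20 tested CDK inhibitors and G1 cyclins, 3 were lower in EOL-1 and higher in MV4-11, among them CDKN2C (-0.20 and 0.33) and the phosphatase CDC25A (-0.29 and 0.20), whose MV4-11 call was lost with DESeq2 (adjusted p = 0.286). Medians of that list were -0.11 and 0.08, and its means 0.15 and -0.01.

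Progenitor genes of the HOXA-MEIS1 programme, of which 24 of 43 were tested, had 4 members higher in EOL-1 and lower in MV4-11, 1 higher in both (NFE2, 0.39 and 0.74) and 1 lower in both (IKZF2, -0.41 and -1.08). In EOL-1 9 of the 24 were called higher and 4 lower (median 0.09, mean 0.45). In MV4-11 4 were higher and 10 lower (median -0.14, mean -0.13). Of all jointly tested genes, 15.3% were higher and 12.4% lower in EOL-1, 19.3% higher and 18.8% lower in MV4-11. The class higher in EOL-1 and lower in MV4-11 held 3.08% of all. The receptor kinase FLT3 had 142 and 139.7 CPM in the sgEZH2 libraries, against 124 and 122 CPM in the sgEV libraries of EOL-1. It had 547 and 538 CPM with guide 1 and 536 and 499 CPM with guide 5, against 710.2 and 685 CPM in the sgEV libraries of MV4-11. Its effects were opposite (0.20 ± 0.04 in EOL-1 (adjusted p = 4.9e-04) and -0.40 ± 0.04 in MV4-11 (adjusted p = 1.2e-05)), as were those of MEF2C (1.54 and -0.26), SATB1 (1.22 and -0.14) and HOXA11 (0.48 and -0.45). The MV4-11 calls of MEF2C, SATB1, HOXA11 and IKZF2 were lost with spike-in scaling (adjusted p = 0.225, 0.830, 0.128 and 0.0680). Among 11 tested PRC2 subunits and partners besides EZH2, SUZ12 (-0.19 and -0.15) and AEBP2 (-0.17 and -0.25) were lower in both and the histone chaperones RBBP4 (-0.16 and 0.16) and RBBP7 (-0.11 and 0.24) lower in EOL-1 and higher in MV4-11. SUZ12 and AEBP2 were not called in MV4-11 with spike-in scaling (adjusted p = 0.820 and 0.325), and AEBP2 and RBBP7 not in EOL-1 with DESeq2 (0.368 and 0.128).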
